A study of Mus musculus with 4 samples.

Results

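Cells of the colon epithelium that carry the label of the Wnt target gene *Axin2* were compared with epithelial cells that do not, on 2 of the 4 dual-color Agilent whole mouse genome arrays of a study on crypt regeneration. The cells came from Axin2CreErt2/Rosa26-tdTomato mice on C57BL/6, in which a tamoxifen-activated Cre under control of *Axin2* switches on the red fluorescent protein tdTomato. The mice received tamoxifen (4 mg per 25 g body weight), and 24 h later the crypts were released from the colon with EDTA and DTT, dissociated with enzymes and sorted. Live cells positive for epithelial surface antigen (ESA), the product of *Epcam*, were collected into TRIzol as a tdTomato-positive pool, here Axin2+, and a tdTomato-negative pool, here Axin2-. Cells of 3 mice were pooled, and both pools share the Cre allele, the reporter, tamoxifen and the dissociation. The Axin2- pool holds every sorted cell without the label, whatever its type, and the label also stays in cells that turned *Axin2* off within those 24 h. By the study's methods, all mice, those of the other arrays included, were males between 6 and 8 weeks of age. The other 2 arrays compared unsorted distal colon tissue of *Rspo3* KO mice (Myh11CreErt2/Rspo3 fl/fl) with that of control littermates (Myh11CreErt2/Rspo3+/+), and are used at the end only.

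*Axin2* is switched on by Wnt signaling and encodes a scaffold protein that feeds back on it by promoting the degradation of β-catenin. In the colon, Wnt and R-spondin signals are strongest at the crypt base, where Lgr5+ stem cells lie. Their daughters divide in the lower crypt and then mature into absorptive colonocytes, mucus-producing goblet cells, hormone-producing enteroendocrine cells and chemosensory tuft cells as they move toward the surface. The comparison addresses which of these programs the Axin2+ cells express.

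Both arrays carried the same 2 pools with the dyes reversed, with Axin2+ in Cy5 on array 1 and in Cy3 on array 2. They are a technical repeat and count as 1 replicate, so no test was possible, and the spread between the arrays says nothing about the spread between mice. Each array held 43379 spots of gene probes, and the share well above background on arrays 1 and 2 was 60.3% and 56.3% for Axin2+ cells and 53.1% and 58.2% for Axin2- cells, and no spot was saturated. Of 41174 gene probes, 24115 passed the filter of a well measured signal in 1 or both channels of each array, which gave 16385 measured genes of 28753 on the array. Values are log2 ratios of Axin2+ over Axin2- cells, with the signals of both pools in arbitrary units after background correction and normalisation. A gene was counted as higher or lower in Axin2+ cells if its mean ratio was past 1.5-fold and pointed the same way on both arrays. In pools of sorted cells, fewer cells of a type and less RNA per cell cannot be told apart.

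The markers of the sort and of crypt position differed in the direction of their names. *Axin2* drives the label that was sorted, and the study picked *Krt20* as an Axin2- marker from these same arrays. The directions of these genes are therefore no independent support. The *Axin2* probe, on mm9 chr11:108811980-108812039, had signals of 633 and 591 in Axin2+ cells and of 249 and 241 in Axin2- cells on arrays 1 and 2, a 2.50-fold difference. The probe of the stem cell receptor gene *Lgr5*, on chr10:114888847-114888906, gave 897 and 796 against 318 and 270, 2.88-fold higher. *Mki67*, which encodes the proliferation antigen Ki67 and whose probe lies on chr7:142881591-142881650, gave 4416 and 4671 against 1132 and 1076, 4.12-fold higher. For all 3 genes the lower Axin2+ signal was above the higher Axin2- signal, and all 3 were well above background in the Axin2- pool too, so that pool still contained their transcripts. *Krt20*, a keratin of mature colonocytes (chr11:99289776-99289835), gave 2235 and 2558 in Axin2+ cells against 18019 and 17458 in Axin2- cells, 7.42-fold lower. *Aqp8*, a water channel of surface colonocytes (chr7:130611436-130611495), gave 1263 and 1201 against 10532 and 8536, 7.70-fold lower. *Epcam*, on whose product both pools were sorted, had a mean log2 ratio of 0.03.

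**Figure D1:**
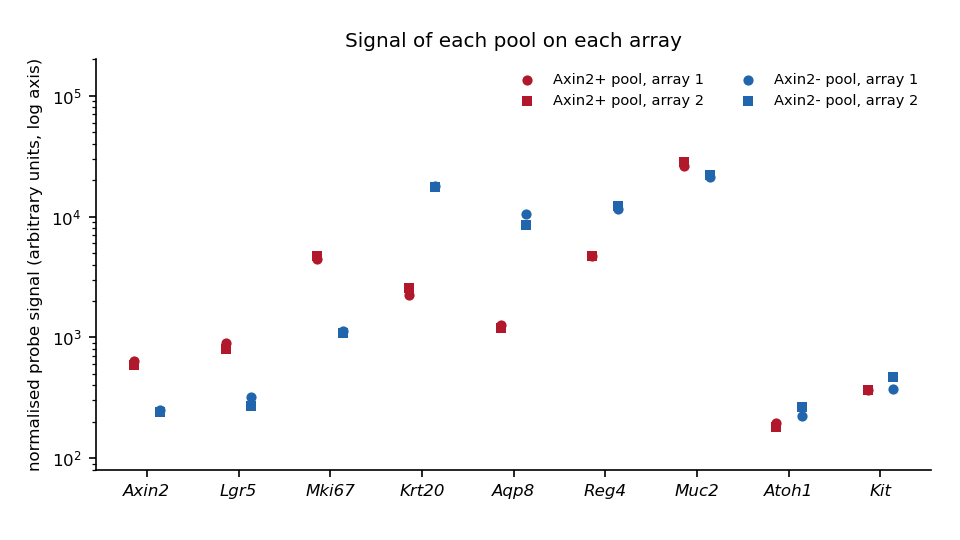
Normalised probe signal (arbitrary units, log axis) of 9 marker genes in the Axin2+ pool (red) and the Axin2- pool (blue), 1 point per array. Axin2, Lgr5 and Mki67 lie higher in the Axin2+ pool and Krt20, Aqp8 and Reg4 lower, while Muc2, Atoh1 and Kit lie within 1.5-fold of each other, and levels of different genes are not comparable.

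Past 1.5-fold, 1304 genes were higher in Axin2+ cells (7.96% of all measured) and 1115 were lower (6.81%). The larger differences lay on the lower side. Past 2-fold, 282 genes were higher and 406 were lower, past 4-fold 6 were higher and 83 lower, and past 8-fold none was higher and 7 were lower. The ratios of the arrays differed by a median of 0.123 on the log2 scale, with a 95th percentile of 0.365, and no gene was past 1.5-fold in opposite directions on the 2 arrays. Where a gene had further measured probes, all pointed one way for 528 of 571 higher genes (92.5%) and 313 of 343 lower genes (91.3%). Over all genes with several probes the share was 71.1%. The called genes were picked for a ratio of 1 of these probes far from 0, which raises their share. The gap is therefore no support for the calls. The counts, the folds and the order of genes depend on the log ratios used. With those of the extraction software, 2999 genes were higher and 2485 lower. By its mean log2 ratios, *Stil* (3.68, against 1.48 here), *Clca3a1* (2.94) and *Clca3a2* (2.76) were above *Gvin1* (2.73). On the lower side, *Ifit1bl1* (-4.18, against -2.58 here) was close to *Spink1* (-4.19).

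**Figure D2:**
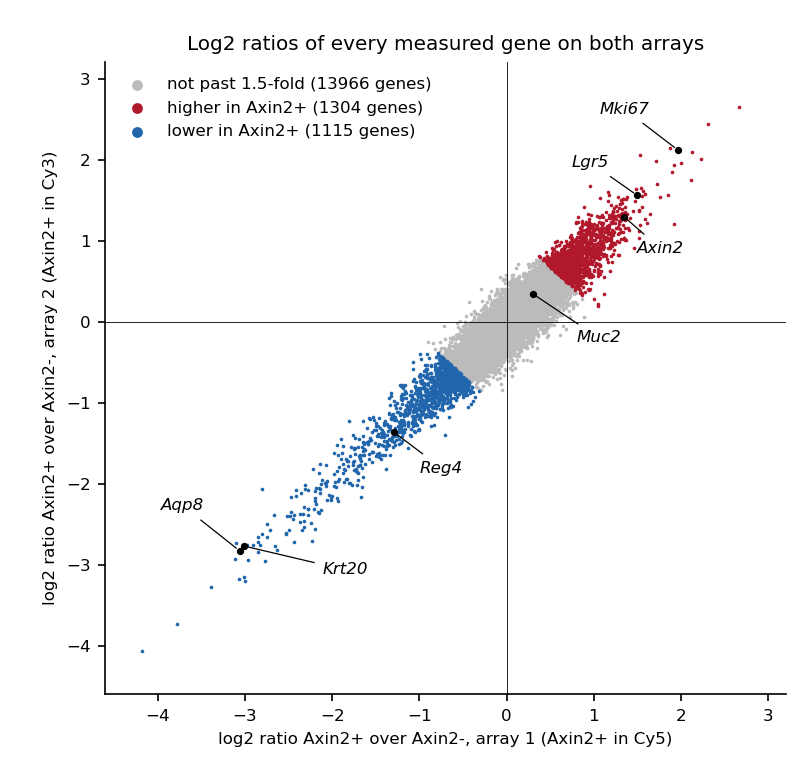
Log2 ratio of Axin2+ over Axin2- cells on array 1 (x axis) and array 2 (y axis), 1 point per measured gene, with 1304 genes higher past 1.5-fold in red and 1115 lower in blue. The points follow the diagonal, and the blue cloud reaches farther from 0 than the red one.

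Genes without a RefSeq name were left out of the ranking that follows. Among the others higher in Axin2+ cells, the highest ratio was that of *Gvin1*, which encodes a very large interferon-inducible GTPase. Its signals were 15785 and 15155 against 2497 and 2412, a 6.30-fold difference. Its 3 probes had mean log2 ratios between 1.70 and 2.66. *Gm1966*, a predicted gene, was at a mean of 1.84. *Clca3a1* gave 1009 and 866 against 204 and 159 (5.19-fold), and *Clca3a2* was at a mean log2 ratio of 1.92. Both belong to the Clca family, members of which are named for calcium-activated chloride channels. *Pcdh17*, a protocadherin, had log2 ratios of 2.11 and 1.75 by its brightest probe, *Camk1d*, a calmodulin-dependent kinase, a mean of 1.98, and *Utrn*, which encodes the cytoskeletal linker utrophin, ratios of 1.75 and 1.54. The other probes of these 3 genes were lower, down to mean log2 ratios of 0.36 for *Pcdh17*, 0.18 for *Camk1d* and 0.23 for *Utrn*. *Cdk6*, a kinase of early cell cycle entry, gave 4729 and 4854 against 1270 and 1348. *Muc4*, a mucin anchored in the membrane, gave 4537 and 3414 against 1261 and 1154, and its 5 probes lay between 1.08 and 1.71.

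The lowest ratio was that of *Spink1*, a secreted trypsin inhibitor, whose signals were 1105.1 and 1041.3 in Axin2+ cells and 19959 and 17495 in Axin2- cells, 17.4-fold lower. *Insl5*, a peptide hormone of enteroendocrine cells of the large bowel, gave 510 and 552 against 7006 and 7365, 13.5-fold lower. *Pmp22*, a small membrane protein best known from myelin, gave 350 and 414 against 3668 and 4007, 10.1-fold lower. The next 7 genes with a RefSeq name included products of the mature absorptive surface. *Car4*, a carbonic anhydrase of the apical membrane, was at a mean log2 ratio of -3.12, *Tmigd1*, an adhesion protein of the brush border, at -3.02, *Sgk2*, a kinase that acts on ion transporters, at -2.96, *Aqp8* at -2.94 and *Fxyd4*, a regulator of the sodium pump, at -2.92. The serum amyloid genes *Saa1* and *Saa2* were at -3.10 and -3.08.

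**Figure D3:**
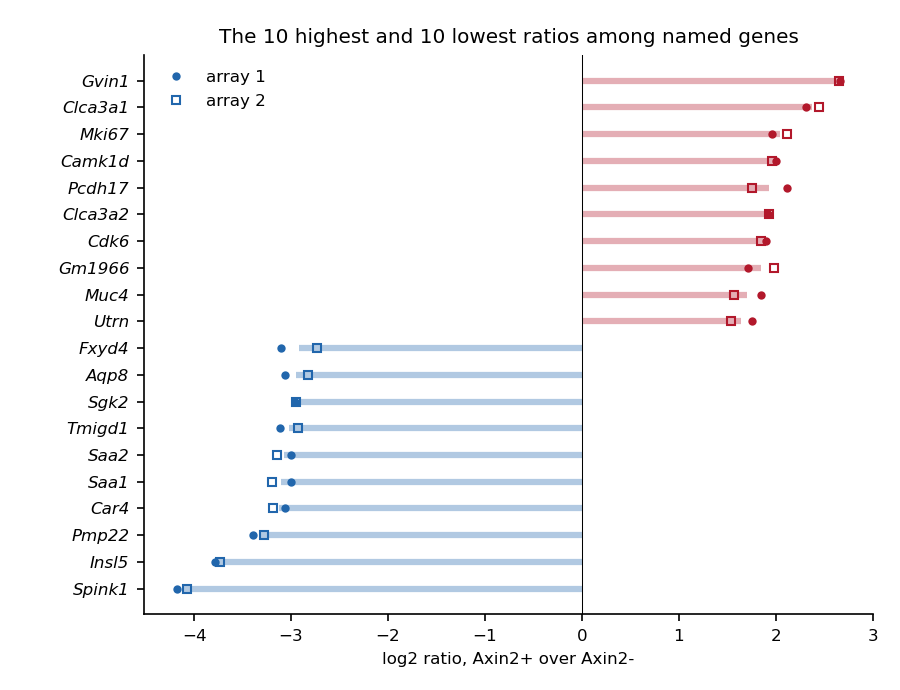
Log2 ratio of Axin2+ over Axin2- cells on array 1 (filled points) and array 2 (open squares), with bars from 0 to the mean. Shown are the 10 highest and 10 lowest genes among those with a RefSeq name. The ratios of the 2 arrays lie close together for each gene, and the lowest, Spink1 at a mean of -4.12, is farther from 0 than the highest, Gvin1 at 2.66.

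For groups of genes, the number of members past 1.5-fold and their median ratio are given beside the same values for all genes, 7.96% higher, 6.81% lower and a median log2 ratio of 0.0010. Of 28 crypt base stem cell genes 26 were measured, of which 16 were higher and 2 lower, with a median of 0.92. Besides *Cdk6* and *Lgr5*, the highest were *Cd44*, a hyaluronan receptor and Wnt target (mean log2 ratio 1.41), *Scn2b*, a sodium channel subunit (1.24), *Lrig1*, a brake on EGF receptors (1.22), and *Rnf43*, which removes Wnt receptors from the membrane (1.20). *Lrig1* gave 9532 and 9530 against 3938 and 4245, and *Rnf43* gave 2401 and 2607 against 1091 and 1092. *Ascl2*, a transcription factor of Lgr5+ stem cells, did not differ past 1.5-fold, with signals of 124 and 107 against 123 and 120. These signals are low and hold the offset of 50 added in background correction, which pulls ratios of dim genes toward 0. *Ephb2*, at 0.16, did not differ past 1.5-fold either. *Aqp4*, a water channel, was lower at 1877 and 1732 against 3484 and 3895, and *Msi1*, an RNA-binding protein, was lower at -0.89. *Olfm4* was not well above background, and *Zfp703* had no probe. With the arrays centred on their medians in place of loess, 5 of the 26 genes were higher past 1.5-fold alike on both arrays, and *Lrig1*, *Rnf43* and *Ephb3* were no longer among them, and 14 were higher by the mean of the arrays alone, a count added after seeing the data.

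The wider group of Wnt feedback genes and targets did not move as one. Of 29 measured of 37, 8 were higher and 3 lower, with a median of 0.08. The 8 were *Lgr5*, *Cd44*, *Axin2*, *Myc*, *Rnf43*, *Ephb3*, *Sox9* and *Ccnd1*, of which *Lgr5*, *Cd44*, *Rnf43*, *Ephb3* and *Sox9* also stand in the stem cell group. *Myc* gave 1083 and 1107 against 480 and 457, with 3 probes between 0.54 and 1.22. The Wnt inhibitor gene *Wif1* was at -1.80, with an Axin2+ signal well above background on 1 of the 2 arrays, *Efnb2*, the membrane-bound ligand of Eph receptors, at -1.34, and the repressor *Tcf7l1* at -0.78. The feedback genes *Nkd1* (-0.09), *Sp5* (0.03) and *Znrf3* (0.40) and the R-spondin receptor *Lgr4* (-0.14) were within 1.5-fold, and *Notum*, *Lef1*, *Nkd2* and *Apcdd1* were not well above background. Of 20 measured Notch genes of 26, 3 were higher, the receptors *Notch1* (0.64) and *Notch2* (0.78, its other probe at 0.00) and *Dtx4* (0.87), and none was lower. The Notch target *Hes1* was at 0.47.

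Genes of cell division stood higher as groups. Of 28 mitosis genes, all measured, 20 were higher and none lower, with a median of 0.70. *Cenpe*, a kinetochore motor, gave 1124 and 1183 against 385 and 378, *Cenpf* 766 and 650 against 254 and 270, and *Top2a*, which untangles DNA, 862 and 807 against 389 and 361. *Bub1*, a checkpoint kinase, was at -0.17 by its brightest probe and at 0.76 by the other, and *Ccnb1* was at 0.28 by a probe listed on another chromosome than the gene. Of 36 genes of DNA replication and nucleotide supply, all measured, 21 were higher and none lower, again with a median of 0.70. *Mcm4*, a subunit of the replicative helicase, gave 2124 and 1986 against 681 and 789, and *Pola1*, the catalytic subunit of DNA polymerase α, 642 and 655 against 273 and 248. *Mcm6* (1.18), *Uhrf1*, which maintains DNA methylation (1.17), *Mcm7* (1.14, by a probe listed on another chromosome) and *Mcm3* (1.07) followed, while *Ccne2*, a cyclin of S phase entry, was at 0.02. Past 2-fold, 6 mitosis genes and 8 replication genes were higher. With median centring in place of loess, 6 mitosis and 2 replication genes were higher past 1.5-fold alike on both arrays, with *Mcm6*, *Mcm7*, *Mcm3* and *Uhrf1* among those lost, and 21 and 19 were higher by the mean alone.

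Of 15 measured inhibitors of Cdk and other growth arrest genes, none was higher and 6 were lower, with a median of -0.34. *Cdkn2b*, which encodes p15, gave 344 and 337 against 1940 and 2011, and *Cdkn1a*, which encodes p21, 341 and 365 against 1562 and 1693. *Mxd1*, a *Myc* antagonist, was at -2.46 by its brightest probe and -1.22 by the other, *Cdkn1c* at -1.80, the differentiation factor *Klf4* at -1.02 and *Ndrg1* at -1.01. *Cdkn1b*, which encodes p27, was at 0.01.

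The promoters of cell cycle genes carry short sequences through which they are switched on together, so those of some of the highest mitosis and replication genes are shown. Windows of 250 bases before to 50 bases after the gene start, from RefSeq (GRCm38.p6), were found for 10780 measured genes (13641 windows) and searched on both strands. The cell cycle genes homology region was searched as TTTGAA and the CCAAT box as CCAAT, a pair typical of genes expressed in mitosis. Each stretch below runs 5′ to 3′ on the strand of the gene, with matches in capitals on either strand. Not every chromosome was used in choosing the genes shown, so genes with a higher ratio can be missing. The first 4 are, among the genes considered, the highest mitosis genes past 1.5-fold whose 250 upstream bases held both motifs:
Mki67: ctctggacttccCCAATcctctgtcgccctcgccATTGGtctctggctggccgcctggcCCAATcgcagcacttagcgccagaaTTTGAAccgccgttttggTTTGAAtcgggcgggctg
Top2a: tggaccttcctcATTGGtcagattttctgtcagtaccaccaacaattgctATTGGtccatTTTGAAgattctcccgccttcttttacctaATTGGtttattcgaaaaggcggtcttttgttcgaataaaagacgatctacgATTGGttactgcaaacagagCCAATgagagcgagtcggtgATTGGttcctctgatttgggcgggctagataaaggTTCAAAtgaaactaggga
Prc1: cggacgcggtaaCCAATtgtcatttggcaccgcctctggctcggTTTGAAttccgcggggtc
Ccnb2: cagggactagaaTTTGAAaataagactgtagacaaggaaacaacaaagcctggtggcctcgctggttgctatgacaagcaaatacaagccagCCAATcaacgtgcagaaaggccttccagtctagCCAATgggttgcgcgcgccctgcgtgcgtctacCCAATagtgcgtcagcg
These lie on GRCm38.p6 at chr7:135716460-135716579 (*Mki67*, minus strand), chr11:99024195-99024428 (*Top2a*, minus strand), chr7:80294402-80294463 (*Prc1*, plus strand) and chr9:70421559-70421733 (*Ccnb2*, minus strand). Both motifs stood in 64.0% of the windows of mitosis genes (16 of 25), in 9.33% of those of genes higher in Axin2+ cells, in 3.34% of those of genes lower, and in 5.18% of the windows of all measured genes.

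For replication genes, the sites of E2F factors were searched as TTTCCCGC, TTTCGCGC, TTTGCCGC and TTTGGCGC. Among the genes considered, chosen with the same limit, the 4 highest replication genes past 1.5-fold with such a site upstream held these stretches. Sites are in capitals on either strand:
Pola1: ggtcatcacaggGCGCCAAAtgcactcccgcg
Mcm6: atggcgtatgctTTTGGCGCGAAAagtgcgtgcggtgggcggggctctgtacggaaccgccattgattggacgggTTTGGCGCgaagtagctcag
Uhrf1: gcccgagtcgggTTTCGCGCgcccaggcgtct
Mcm7: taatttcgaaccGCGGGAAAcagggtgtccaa
They lie at chrX:93632274-93632305 (*Pola1*, minus strand), chr1:128359733-128359827 (*Mcm6*, minus strand), chr17:56304116-56304147 (*Uhrf1*, plus strand) and chr5:138172029-138172060 (*Mcm7*, minus strand). E2F sites stood in 37.8% of the windows of replication genes (14 of 37), in 8.73% of those of genes higher in Axin2+ cells, in 1.53% of those of genes lower, and in 3.64% of all. The sites of TCF and LEF factors, the nuclear end of Wnt signaling, were searched as CTTTGAA and CTTTGAT, the former overlapping TTTGAA. They stood in 6.32% of the windows of genes higher, 5.54% of those of genes lower and 6.36% of all, and in 7.69% of those of both the stem cell genes and the Wnt genes (2 of 26 windows each). *Lgr5* had no window in the table. A match is a description of the letters and not evidence of binding, and sites farther from the start were not searched.

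**Figure D4:**
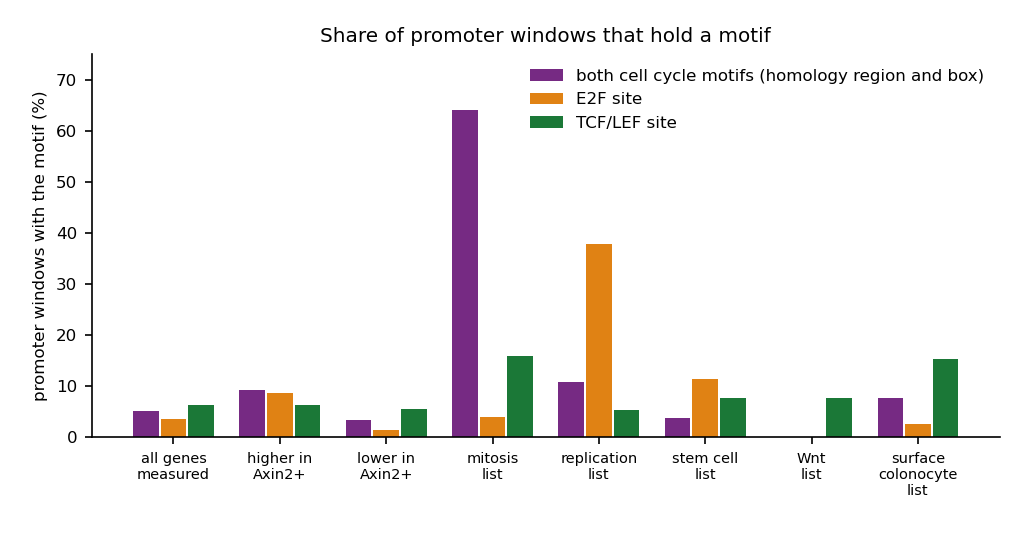
Share of promoter windows (y axis, percent) that hold both the homology region and the CCAAT box (purple), an E2F site (orange) or a TCF/LEF site (green), for all measured genes, the genes higher and lower in Axin2+ cells and 5 gene groups. Both cell cycle motifs stand in 64.0% of mitosis windows and E2F sites in 37.8% of replication windows, while TCF/LEF sites are at 6.32% among higher genes and 6.36% among all.

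Most splicing genes, and a smaller share of the genes of ribosome production, were higher past 1.5-fold. Of 40 splicing factors and hnRNP genes, all measured, 26 were higher and none lower, with a median of 0.73. *Hnrnpm* gave 8231 and 8289 against 3351 and 3041, *Srsf11* had a mean of 1.32 (0.37 by its other probe), and *Tra2a* of 1.23 (3 probes from 0.38). *Hnrnph1* (1.92 and 1.21 on the 2 arrays), *Hnrnpa3* (1.33) and *Hnrnpa1* (1.24) were read by probes listed on another chromosome than the gene, as for 7 of the 40, so which copy was measured is uncertain. Of 28 genes of ribosome biogenesis, 10 were higher and none lower, with a median of 0.47. *Ncl*, which encodes nucleolin, gave 14669 and 17766 against 5636 and 6105, and *Npm1*, which encodes nucleophosmin, 27805 and 32972 against 11348 and 13326. Of 33 ribosomal protein genes, 9 were past 1.5-fold higher and none lower, the median was 0.49, and all 33 had positive ratios on both arrays, although 19 of them were read by probes listed on another chromosome.

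Genes of the secretory lineage differed from group to group. The genes by which the study marks goblet cells of the crypt base did not differ alike. *Reg4* was lower in Axin2+ cells, with 4705 and 4708 against 11531 and 12113. *Muc2*, the main secreted mucin, gave 26155 and 28065 against 21216 and 22140, a mean log2 ratio of 0.32, with 3 probes between 0.22 and 0.76. *Atoh1*, the factor that commits cells to the secretory fate, gave 194 and 182 against 221 and 266, and *Kit*, a receptor tyrosine kinase, gave 369 and 366 against 370 and 472. *Muc2*, *Atoh1* and *Kit* were within 1.5-fold and well above background in both pools. Of 15 measured genes of deep crypt secretory cells, none was higher and 6 were lower, with a median of -0.57. The lowest was *Mptx1*, a pentraxin, at -2.01, followed by *Reg4* at -1.33 and *Ramp1*, a receptor-modifying protein, at -1.21. Of 17 secretory progenitor genes, *Sox4* (0.92) and *Sox9* (0.69) were higher and *Reg4* lower. *Spdef* (-0.41), *Gfi1* (-0.35), *Dll1* (0.06) and *Foxa3* (-0.17) were within 1.5-fold.

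Many products of mature goblet cells were lower, but not *Muc2*. Of 24 goblet cell genes, all measured, none was higher, 14 were lower and 10 were neither, with a median of -0.86. *Clca1*, a secreted protein that processes mucus, gave 4769 and 3740 in Axin2+ cells against 32533 and 29084 in Axin2- cells, 7.28-fold lower. *Zg16*, a lectin of the mucus that binds bacteria, gave 8459 and 7552 against 56857 and 47535, 6.50-fold lower. *Guca2a*, which encodes guanylin, was at -1.93, *Fcgbp*, a mucus component, at -1.87, *Retnlb* at -1.79 and *Tff3*, a trefoil peptide, at -1.18. In contrast to these, *Agr2* (-0.23), *Muc13* (-0.01), *Ern2* (0.12) and *Muc2* (0.32, the highest of the group) were within 1.5-fold.

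Enteroendocrine hormones were lower, and early factors of the lineage such as *Neurog3* were not past 1.5-fold. Of 30 measured genes of 32, none was higher and 17 were lower, with a median of -0.79. Ratios of 28 of the 30 were negative on both arrays, and with the software's log ratios 22 were lower past 1.5-fold. After *Insl5* came *Chga*, which encodes the granule protein chromogranin A, with 2192 and 2295 against 15317 and 14183, and *Gcg*, the glucagon gene, with 513 and 590 against 2767 and 3878. *Tph1*, the enzyme of serotonin synthesis, was at -2.33 (-0.81 by its other probe), *Chgb* at -2.11 and *Pyy*, which encodes peptide YY, at -2.08. Among transcription factors, *Neurog3* was at -0.02, *Pax4* at -0.30, *Neurod1* at -0.38, *Insm1* at -0.23 and *Fev* at -0.52. The offset of 50 pulls ratios of dim genes toward 0, and its part in the smaller ratios of these factors was not tested. Of 22 measured tuft cell genes of 27, 12 were lower and 1 was higher, *Hpgds* at 0.59, with a median of -0.62. *Alox5*, of leukotriene synthesis, was at -1.57, *Trpm5*, the cation channel of taste signaling, at -1.53 and *Dclk1* at -1.20 with all 4 probes between -1.28 and -1.06. *Pou2f3*, the factor that specifies tuft cells, was not well above background.

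The group with the lowest median was that of surface colonocytes. Of 39 measured genes of 41, none was higher and 33 were lower, with a median of -1.68. Besides *Spink1*, *Car4*, *Saa1*, *Saa2*, *Tmigd1* and *Aqp8*, these included *Slc26a3*, the chloride and bicarbonate exchanger of the apical membrane, at 227 and 276 against 1788 and 1863, *Slc9a3*, the sodium and proton exchanger, at -2.37 (-0.51 by its other probe), and *Cyp2c55* at -2.43. The 6 within 1.5-fold were *Guca2b* (-0.46), *Vill* (-0.28), *Car2* (-0.25), *Ceacam1* (-0.24), *Muc3* (-0.18) and *Sult1c2* (-0.03). Of 35 measured solute carriers, 18 were lower and 2 higher, with a median of -0.60. Higher were *Slc12a2*, the basolateral sodium, potassium and chloride cotransporter, with 1806 and 1586 against 711 and 775, and the zinc transporter *Slc39a8* at 0.59. The peptide transporter *Slc15a1* was not well above background in Axin2+ cells and was at least 2.50-fold lower. Of 38 measured genes of xenobiotic and steroid metabolism, 20 were lower and 3 higher, with a median of -0.66, from *Cyp3a13* at -2.79 and the carboxylesterase *Ces2e* at -2.76 (-0.86 by its other probe) to *Aldh1b1*, a mitochondrial aldehyde dehydrogenase, at 1.14.

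Structure and energy genes of absorptive cells differed less. Of 26 measured genes of membrane mucins and the brush border, 11 were lower and *Muc4* alone was higher, with a median of -0.46. *Alpi*, the intestinal alkaline phosphatase, was at -1.73 by its brightest probe and at 0.25 by the other, and *Mep1b*, a protease of the brush border, at -1.60, while *Vil1*, which encodes villin, was at -0.16. Of 40 subunits of oxidative phosphorylation 7 were lower and none higher (median -0.25), and of 32 measured genes of fatty acid oxidation 4 were lower and none higher (median -0.21). Of 30 genes of cholesterol synthesis and uptake 6 were lower (median -0.29), and the cholesterol exporter *Abca1* was higher at 1.17. Of 34 measured transcription factors of intestinal identity, 4 were higher, among them *Nr5a2* (0.77) and *Gata6* (0.66, with 3 probes from -0.23), 3 were lower, among them *Zbtb7b* (-0.71) and *Klf4* (-1.02), and *Cdx2* (0.41) and *Hnf4a* (-0.43) were within 1.5-fold.

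Of the genes of host defense, most antimicrobial ones were lower past 1.5-fold, and fewer of those induced by interferon or acting in antigen presentation were. Of 19 measured antimicrobial and acute phase genes 15 were lower and none higher, with a median of -1.10. Besides the serum amyloid genes these included *Lypd8*, which keeps bacteria off the surface, at -2.46, and *Reg3b*, an antibacterial lectin, with 9113 and 10559 against 22889 and 19391. *Reg3g* was at -0.12 and *Pigr*, the receptor that carries immunoglobulin A, at 0.30. Of 37 measured genes induced by interferon, 17 were lower and *Gvin1* alone was higher, with a median of -0.48. *Isg15* gave 184 and 207 against 721 and 816, *Irf7*, the factor that amplifies type I interferon, 193 and 241 against 736 and 941, and *Ifit1* was at a mean of -1.89. Of 25 measured genes of antigen presentation, 8 were lower and *Cd1d1* alone was higher, at 1.13, with a median of -0.45. *H2-K1*, a class I heavy chain, was at -0.94 and *B2m*, its light chain, at -0.57, whereas the class II genes *H2-Ab1* (-0.01), *H2-Aa* (-0.03) and *Cd74* (0.23) were within 1.5-fold.

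Several pathways and structures differed in few members. None of 32 measured genes of the unfolded protein response was past 1.5-fold in either direction (median -0.12, from *Edem1* at -0.57 to *Pdia6* at 0.42). Of 30 measured junction genes, *Cldn2*, a claudin that forms cation pores, was higher at 0.89 and *Cldn4*, a sealing claudin, was lower at -0.67. Of 13 measured keratins, *Krt20* (-2.89), *Krt8* (-0.83) and *Krt19* (-0.67) were lower and none was higher. Of 23 measured BMP genes 3 were higher and 2 lower (median -0.06), with the coreceptor *Rgmb* at 0.92 and the ligand *Bmp2* at -0.83. Of 15 measured Eph receptors and ephrins 3 were higher and 1 lower, and the pair of *Ephb3* at 1.04 and its ligand *Efnb2* at -1.34 marked the ends of the range. Of 20 measured genes of the EGF receptor family 3 were higher, *Lrig1*, the feedback inhibitor *Spry1* (1.12) and the ligand *Hbegf* (0.83), and none was lower. Of 7 measured Hedgehog genes the transducer *Smo* (0.98) and the coreceptor *Boc* (0.93, its other probe at 0.25) were higher. Among 15 measured genes of reserve stem cells and regeneration, *Lrig1*, *Mex3a*, *Hopx* and *Ccn1* were higher and *Ly6a* (-1.60), *S100a6* and *Il1rn* (-0.88) were lower.

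**Figure D5:**
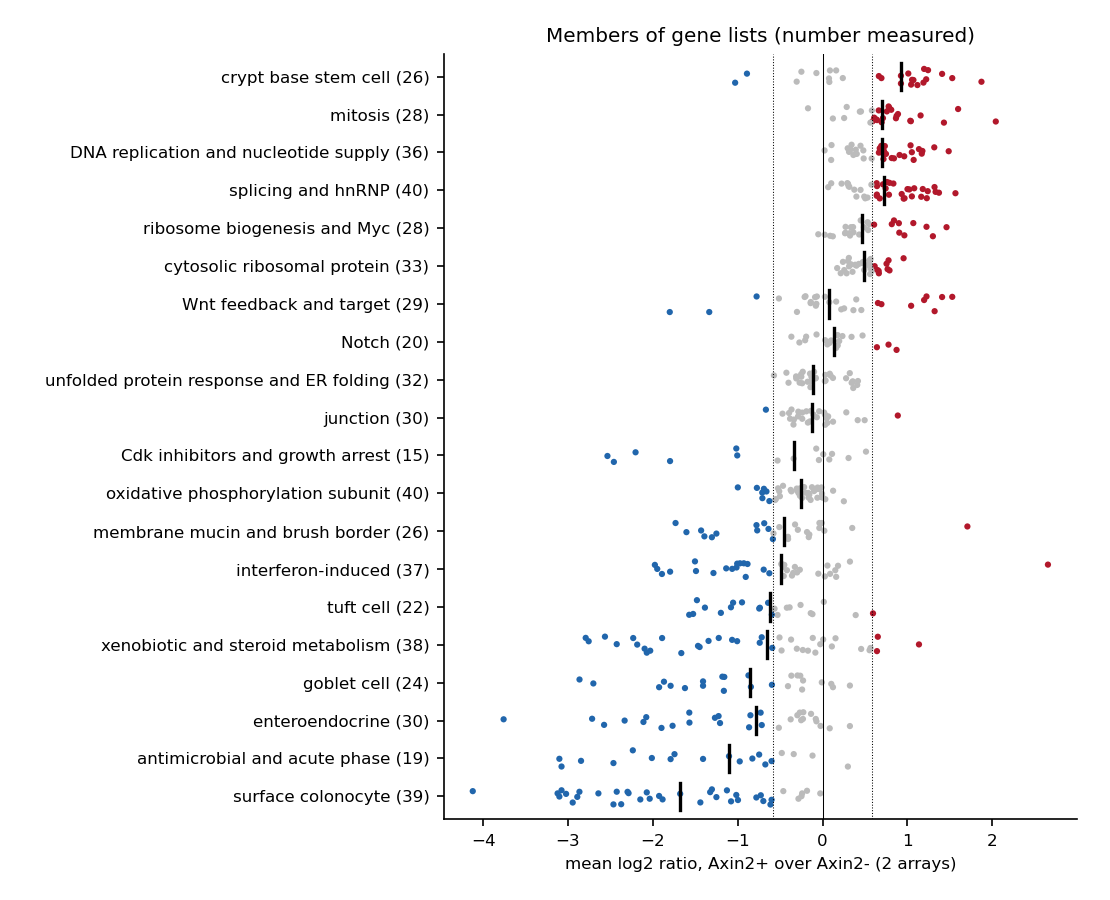
Mean log2 ratio of Axin2+ over Axin2- cells (x axis) of the measured members of 20 gene groups, 1 point per gene, in red past 1.5-fold higher, in blue past 1.5-fold lower and in grey between (dotted lines), with the group's median as a black bar. The medians run from 0.92 for crypt base stem cell genes to -1.68 for surface colonocyte genes.

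Other properties of the pools, the genes and the probes were set beside these differences. Of 24 measured genes of the early response and of heat shock, which dissociation of tissue can induce, 12 were higher in Axin2+ cells and none lower, with a median of 0.58. The summed signal of the group was 165270 and 168700 in Axin2+ cells and 107720 and 118310 in Axin2- cells. *Fos* gave 22416 and 23109 against 9770 and 10997, *Nr4a1* 8542 and 8292 against 3458 and 3325, and *Hspa1a* 1598 and 1646 against 642.8 and 761.8, while *Junb* was at 0.11 and *Dusp1* at 0.23. *Myc* stands in this group, the Wnt group and the ribosome group, and the part of dissociation in their ratios was not tested. Of 15 genes of epithelial cells in general, all measured, none was higher and 4 were lower, *Phgr1*, *Krt8*, *Lgals4* and *Krt19*. With genes split by genomic span into 4 bins of equal number, the shortest (up to 8.38 kb) had a median log2 ratio of -0.09, with 5.43% higher and 9.02% lower, and the longest (from 49.5 kb) had one of 0.04, with 9.76% higher and 5.88% lower. For 3557 genes with probes at least 500 bases apart, the ratio of the probe toward the 5′ end was above that of the probe toward the 3′ end in 38.3%, with a median difference of -0.07 on the log2 scale. That difference was -0.37 among the higher genes and 0.19 among the lower genes. Genes were called higher or lower by the ratio of their brightest probe, which can itself be the probe at either end. Any other probe of a called gene then tends to lie closer to 0 by selection alone. The values split by call therefore cannot show an effect of probe position. The parts of gene length and of probe position in the group values were not tested.

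Part of the markers of cells outside the epithelium were measured, so the absence of such cells from the pools is not shown. Each signal summed below holds the offset of 50 added in background correction. For groups of dim genes the offset is a large part of the sum and brings the sums of the pools closer together. Of 22 listed genes of T cells and intraepithelial lymphocytes 12 were measured, 3 were lower and none higher, with summed signals of 1992 and 2029 against 2199 and 2422. *Cd3e* gave 591 and 562 against 696 and 666, and *Gzma*, a granzyme, was at least 2.09-fold lower, being not well above background in Axin2+ cells. For B cells 7 of 15 genes were measured, with sums of 539 and 555 against 592 and 616, and for macrophages and dendritic cells 10 of 19, with sums of 2188 and 2228 against 2240 and 2292. Of fibroblast genes 7 of 20 were measured, with sums of 701 and 729 against 908 and 950, and *Col1a1*, *Col3a1* and *Pdgfra* were not well above background in either pool. Of smooth muscle genes 6 of 12 were measured, with sums of 9017 and 7316 against 6972 and 7024, *Acta2* holding most of that signal and *Myh11* and *Des* not well above background. For endothelial cells 5 of 15 genes were measured (537 and 539 against 588 and 572), for neurons and glia 4 of 15 (368 and 375 against 469 and 517), and for mast cells 3 of 11 (557 and 566 against 668 and 805). Of all these markers none was higher past 1.5-fold, and those lower numbered 3 for T cells, 2 each for smooth muscle and for neurons and glia, and 1 each for fibroblasts, macrophages and mast cells. Red blood cells had no list, and the hemoglobin genes *Hba-a1* (-1.35), *Hba-a2* (-1.32) and *Hbb-bt* (-1.58) were lower in Axin2+ cells.

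The genes were then set beside the *Rspo3* KO arrays, which share no sample with the sorted cells. *Rspo3* encodes R-spondin 3, the ligand of Lgr receptors that raises Wnt signaling and is made by stromal cells, and Myh11CreErt2 deletes it in smooth muscle and myofibroblasts. Labels give distal colon of C57BL/6 mice, in 2 pairs of mice with the dyes reversed. By the study's account, the tissue was taken 2 weeks after tamoxifen. Of 13161 genes measured in both experiments, 2.48% were lower and 1.53% higher in *Rspo3* KO colon past 1.5-fold by the mean of 2 pairs that pointed one way. Of 1131 genes higher in Axin2+ cells, 78 (6.90%) were lower in *Rspo3* KO colon, which is 23.9% of the 327 genes lower there, and 10 (0.884%) were higher. Of 1003 genes lower in Axin2+ cells, 58 (5.78%) were higher in *Rspo3* KO colon, 28.7% of the 202 genes higher there, but 43 (4.29%) were lower too. These counts were not tested.

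Among the genes higher in Axin2+ cells, *Pcdh17* had log2 ratios of *Rspo3* KO over control of -2.97 and -3.22 in the 2 pairs, *Lgr5* of -1.28 and -2.61, *Ephb3* of -1.61 and -1.01, *Rnf43* of -0.63 and -0.73 and *Gvin1* of -0.45 and -1.03. Among those lower in Axin2+ cells, *Slc9a3* had ratios of 1.35 and 1.83, *Mxd1* of 1.20 and 0.51 and *Isg15* of 0.76 and 0.90. Others went the same way in both experiments. The 43 genes lower in both included *Chga* (-1.14 and -0.17), *Gcg* (-0.68 and -0.55) and *Reg3b* (-0.26 and -4.12). They also held *Cyp2c40* (-0.92 and -1.19), *Cyp2c29* (-1.05 and -0.67) and other genes of xenobiotic metabolism. The 10 higher in both included *Egr1* (0.64 and 0.77). By group, 8 of 25 stem cell genes and 10 of 36 replication genes were lower in *Rspo3* KO colon, but none of 28 mitosis genes, whose median was -0.53 in one pair and 0.37 in the other. Of 29 surface colonocyte genes measured in both, 2 were higher and 1 was lower, and of 37 interferon genes 5 were higher and 1 was lower. Of 36 genes of xenobiotic and steroid metabolism, 6 were lower and none was higher. The *Rspo3* KO samples are whole tissue, in which cell types outside the epithelium differ as well. There, 4 of 5 B cell genes measured in both were lower and 1 was higher, with medians of -0.83 and -0.58. The hemoglobin genes *Hba-a1* (1.61 and 1.32), *Hba-a2* (1.45 and 1.06) and *Hbb-bt* (1.44 and 1.76), lower in Axin2+ cells, were higher. The part of such cells in the shared counts was not tested.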

How the data were processed

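RNA of sorted Axin2+ and Axin2- colon epithelium, pooled from 3 mice, was hybridised on 2 dye-swapped arrays of 1 slide. The authors labelled the RNA by oligo-dT priming, scanned the arrays and ran Agilent Feature Extraction. The deposited columns are, per spot and dye, the intensity of the signal (mean) and of the local background, other columns with flags and the error of the ratio, and a log10 ratio of Cy5 over Cy3 that the software had corrected for background and dye. The series' table of values as the authors deposited it holds that log10 ratio. Positions of probes are those of mm9.

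Background correction of these intensities used the normexp method of limma (version 3.58.1, R 4.3.3; offset 50), followed by loess normalisation of the log2 ratios of each array. Control spots were used in fitting the background only, and outlier spots (131 and 124) were left out. Ratios were turned so that Axin2+ cells are on top, spots of a probe were averaged, and the brightest probe stood for a gene, with a probe kept if each array showed it well above background in either channel. Signals of single pools were taken after quantile scaling of the average intensity between arrays (Aquantile) and can hold dye bias beyond what loess removes. Of 41174 probes, 32501 were named through RefSeq (GRCm38.p6), of which 28881 matched by accession, 3431 through the symbol and 189 through a synonym, and the rest kept the name in the array files. Of 12331 measured genes with a listed probe position, 345 had a probe on another chromosome than the gene. The *Rspo3* KO arrays were handled alike, with 2 pairs of mice.

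Past 1.5-fold follows the cutoff of the study's methods. With 1 replicate no p-value was computed, and precision is limited by having 2 arrays of the same pools. For a gene not well above background in a pool on both arrays, the fold is a bound set by the higher of its own signal and the lowest signal among probes well above background on that array. Genes named are the markers, those the study names for these cells, and the 10 highest and 10 lowest among genes with a RefSeq name. In each of 43 gene lists, up to 6 members each way were named. Its defining members that were not past 1.5-fold or not measured were named too. A few further genes were named after their values were seen. The members and lists were chosen with earlier results of these data known, so that counts over them are no independent support. Promoter motifs were counted with Python 3.11.15 and pandas 2.3.3, and figures were drawn with matplotlib 3.10.9. The scripts were tested on simulated data. Alternatives tried were the software's log ratio, the series' table, no background correction, an offset of 16, median centring, other filters on dim probes, the mean over probes, 2-fold, 1.5-fold on each array, error weights and each array left out.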

Additional observations from a re-analysis of the deposited data

How the results depend on the processing

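Of 1304 genes higher and 1115 lower in Axin2+ cells, counts moved by over 1.5 times under 4 alternatives. With the software's log ratios, and with the series' table, which holds the same values, 2999 were higher and 2485 lower, and 2377 of the 2419 genes kept their direction and stayed past 1.5-fold. With a 2-fold threshold 282 were higher and 406 lower, so that the share of calls that are higher went from 53.9% to 41.0%. With median centring in place of loess, 567 were higher and 599 lower (48.6% higher), 5 stem cell, 6 mitosis and 2 replication genes were higher, and the arrays pointed the same way for 22.3% of genes, with r of -0.0174 across genes. Counted by the mean of both arrays alone, an alternative added after seeing the data, median centring gave 1246 higher and 1492 lower genes, and 14 stem cell, 21 mitosis and 19 replication genes higher, which differs from the other count only in the demand that both arrays point one way. Past 2-fold, 6 mitosis and 8 replication genes were higher. With the mean over a gene's probes 1016 were higher and 1006 lower. Leaving out either array gave between 1349 and 1380 genes higher and between 1070 and 1269 lower. Counts of lower goblet cell, enteroendocrine and surface colonocyte genes stayed within 1.5 times under every alternative run, at 11 to 16, 13 to 22 and 27 to 35. Of 369 named genes, only the 196 past 1.5-fold were checked for a change of direction, and none of these changed. Between 112 (median centring) and 196 of them kept their call. No paired analysis was possible because both arrays hold the same 2 pools. The 12359 genes left out by the filter on dim probes had mean ratios no larger than 0.41 on the log2 scale in either direction, and none of them is counted above.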
